A study of Homo sapiens with 12 samples.

Results

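The genes described here are 9 of the 58735 genes in the count table: the nuclear steroid receptor genes PGR, ESR1, NR3C1 and NR3C2, the FKBP co-chaperone genes FKBP4 and FKBP5, and the membrane progesterone receptor genes PAQR5, PAQR7 and PAQR8. They were chosen by name and matched to the Ensembl identifiers of the table, where all 9 were found. Their mRNA was measured by sequencing of polyA RNA in 12 libraries from human endometrial cell lines, 3 for each of 4 groups. HEC-1A is an epithelial line from an endometrial adenocarcinoma, and T-HESC is an endometrial stromal fibroblast line immortalized with telomerase. Established cultures were exposed for 32 h to AG-205 at 15 µM, a small molecule that has been used as a ligand of the heme-binding protein PGRMC1, or to its vehicle DMSO, in medium without phenol red that contained fetal bovine serum. Within a line, no genetic change or added progestin distinguished the AG-205 group from the DMSO group. Each cell type is represented by 1 line, so that epithelial or stromal origin, donor, tumor origin and immortalization cannot be told apart in any comparison between the lines. The 3 libraries of a group came from independent culture experiments.

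Nuclear steroid receptors are transcription factors that wait in a complex with HSP90 and its co-chaperones, bind a steroid, and then act on hormone response elements in the DNA. PGR, the progesterone receptor, and ESR1, the estrogen receptor alpha, carry the ovarian hormone response of the endometrium, whereas NR3C1 is the glucocorticoid receptor and NR3C2 the mineralocorticoid receptor. FKBP4 (FKBP52) favors hormone binding and transport of the receptor to the nucleus, and FKBP5 (FKBP51) lowers the receptor's affinity for hormone and is itself a well-known target of NR3C1 and PGR. PAQR7, PAQR8 and PAQR5 encode the membrane progesterone receptors alpha, beta and gamma, multi-pass membrane proteins of the progestin and adipoQ receptor family that respond to progestins at the cell surface.

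Total counts per library ranged from 7168542 to 15178276. The lines carried the markers of their labels: the summed level of 10 epithelial markers was 1905 to 2729 CPM (counts scaled to a common library total) in HEC-1A and 227 to 378 CPM in T-HESC, where CDH1, ESRP1 and GRHL2 had at most 3 counts in each library of both groups, whereas the summed level of 10 stromal markers was 16.1 to 21.2 CPM in HEC-1A and 13692 to 28761 CPM in T-HESC. In HEC-1A the first principal component (51.1% of the variance) parted AG-205 from DMSO, whereas AG-205 replicate 1 of T-HESC (score 89.9) stood apart from the other libraries of its line (-36.8 to 2.63). Spread was wider in T-HESC, with a biological coefficient of variation of 33.6% against 10.1% in HEC-1A. Levels are given as CPM with TMM scaling over the 12 libraries, each mean with its SD over 3 libraries, and genes are compared with each other only as CPM per kb of exon. Counts of at most 3 in every library of a group are called the floor, which corresponded to a mean of 0.25 to 0.26 CPM in each group. Differences were tested by the quasi-likelihood method of edgeR, p-values were adjusted over all genes tested, and a gene was called at an adjusted p under 0.05 with a log2 fold change above 1 or below -1. In these bulk samples, fewer cells that express a gene and less RNA per cell cannot be told apart.

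The receptor repertoire of the lines with DMSO was compared first. FKBP4 had the highest level of the 9 genes per kb of exon in both lines, 59.9 ± 2.48 CPM per kb in HEC-1A and 16.4 ± 3.76 in T-HESC (SD, n = 3). In HEC-1A it was followed by PAQR5 (7.35 ± 0.452 CPM per kb), PAQR8 (4.89 ± 0.267) and PAQR7 (3.96 ± 0.212), and then at lower levels by NR3C1 (0.717 ± 0.0363) and NR3C2 (0.432 ± 0.0464). No neighbors in this order of 6 genes overlapped between libraries, and FKBP5, ESR1 and PGR were at or close to the floor. T-HESC had another order. FKBP4 was followed by PAQR7 (11.8 ± 0.781 CPM per kb) and NR3C1 (10.6 ± 1.67), whose libraries overlapped, then by PGR (1.29 ± 0.334), FKBP5 (0.901 ± 0.322), PAQR8 (0.863 ± 0.0642) and PAQR5 (0.539 ± 0.179). Among these last 4 genes, FKBP5 overlapped with each of the other three, whereas PGR, PAQR8 and PAQR5 did not overlap with each other. NR3C2 (0.0977 ± 0.0857) and ESR1 (0.0225 ± 0.0260) came last and overlapped.

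**Figure D1:**
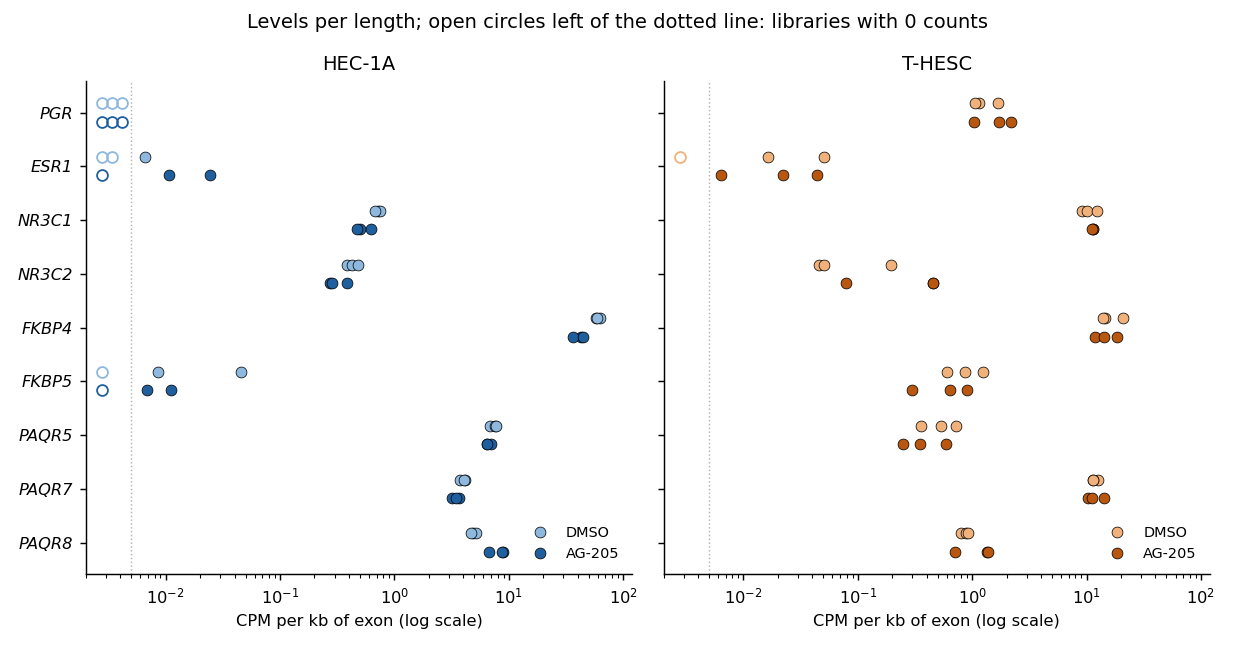
Levels of the 9 genes per kb of exon, in CPM per kb on a log axis, with 1 point per library; the panels are the cell lines, pale points DMSO and dark points AG-205, and open circles left of the dotted line stand for libraries with 0 counts, drawn side by side. PGR had 0 counts in each HEC-1A library, and NR3C1 lay near 0.7 CPM per kb in HEC-1A and near 10.6 in T-HESC with DMSO.

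With DMSO, 8 of the 9 genes passed the filter on low counts in the comparison of the lines, and all 8 were called, where 44.6% of the 14789 genes tested were called. The groups did not overlap for any of the 8, as for 76.6% of all genes tested, and the median of the 7 log2 fold changes that could be estimated was -1.87, where that of all genes was -0.02. PGR and FKBP5 passed the filter through their T-HESC counts alone and NR3C2 through its HEC-1A counts, so that these 3 had to differ. Neither the count of 8 nor the adjusted p-values of these 3 genes given below are support. PGR, NR3C1, FKBP5 and PAQR7 were higher in T-HESC, and NR3C2, FKBP4, PAQR5 and PAQR8 were higher in HEC-1A, so that each of the 3 classes of genes was split between the lines. The 7 genes with an estimated fold were called with the same sign in each of 13 alternative settings.

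PGR (ENSG00000082175, GRCh38 chr11:101029624-101129813, minus strand, exon length 14692 bases) had 0 counts in all 6 HEC-1A libraries. The floor of 3 counts per library corresponded there to a mean of 0.254 CPM with DMSO and 0.258 CPM with AG-205. In T-HESC with DMSO the PGR counts were 225, 184 and 246 in replicates 1 to 3, or 16.9, 15.5 and 24.6 CPM. PGR mRNA was at least 74.8-fold higher in T-HESC than in HEC-1A with DMSO, set against a floor of 3 counts per library (adjusted p = 4.18e-06, edgeR). Since PGR passed the filter through T-HESC alone, this adjusted p adds no support. PGR-AS1, a long non-coding RNA on the opposite strand, shares 5.02% of the exon length of PGR and had 4 to 13 counts in the T-HESC libraries with DMSO. The strandedness of the counting is not given in the sources used here.

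The promoter windows of PGR and FKBP5 are shown because these genes had clear counts in T-HESC and almost none in HEC-1A. They come from a RefSeq table of windows of 300 bases (GRCh38.p14, 250 bases before to 50 after a transcript start), which held 22 windows for 5 of the 9 genes, PGR, ESR1, NR3C1, NR3C2 and FKBP5, and none matched to FKBP4, PAQR5, PAQR7 or PAQR8. Of the 3 PGR windows, the first below lies at the 5′ end of the annotated gene (chr11:101129764-101130063, minus strand) and the second at an internal start (chr11:101129014-101129313, minus strand). Capitals mark matches, on either strand, to the GC box GGGCGG, the CCAAT box CCAAT, the TATA box TATAAA, the steroid response element arm AGAACA and the E-box CACGTG, and these matches may overlap.
PGR at the annotated 5′ end: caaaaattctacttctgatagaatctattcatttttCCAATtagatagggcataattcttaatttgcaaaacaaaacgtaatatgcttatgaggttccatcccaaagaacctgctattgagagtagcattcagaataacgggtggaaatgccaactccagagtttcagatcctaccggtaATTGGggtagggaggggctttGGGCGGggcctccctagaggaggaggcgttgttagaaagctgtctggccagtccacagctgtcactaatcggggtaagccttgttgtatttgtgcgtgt
PGR at the internal start: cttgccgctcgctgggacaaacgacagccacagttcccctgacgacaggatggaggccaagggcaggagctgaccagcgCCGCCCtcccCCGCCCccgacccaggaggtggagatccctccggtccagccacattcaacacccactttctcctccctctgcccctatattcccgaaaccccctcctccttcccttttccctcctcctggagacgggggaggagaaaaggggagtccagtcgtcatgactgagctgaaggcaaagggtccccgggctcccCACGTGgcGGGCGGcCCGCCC
The window at the 5′ end had a GC content of 44.3% with 7 CpG sites, and the internal one had 66.0% with 17, where the medians over 35116 windows were 58.7% and 14. The first held 1 GC box and 2 CCAAT boxes, and the second held 4 GC boxes and 1 E-box. Over all windows, 45.0% held a GC box, 34.6% a CCAAT box, 11.5% a TATA box, 14.8% the response element arm and 7.26% an E-box. None of the 3 PGR windows held AGAACA, which says only that these letters are absent from them.

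NR3C1 (ENSG00000113580, chr5:143277931-143435512, minus strand) had the highest level of the 4 nuclear receptor genes in both lines. Its counts with DMSO were 79, 86 and 69 in HEC-1A and 1120, 1106 and 1140 in T-HESC, or 6.53, 6.92 and 6.26 CPM against 84.1, 93.0 and 113.9 CPM. T-HESC thus had 14.7-fold more NR3C1 mRNA (log2 fold change 3.87, SE 0.15, adjusted p = 4.68e-08). Within T-HESC libraries the level of NR3C1 per kb was 7.43 to 9.64 times that of PGR with DMSO and 5.19 to 10.9 times with AG-205. This ratio within a library does not depend on the scaling of libraries.

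NR3C2 (ENSG00000151623, chr4:148078762-148444698, minus strand) was low in both lines and went the other way. With DMSO it had 31, 35 and 35 counts in HEC-1A, or 2.56, 2.82 and 3.17 CPM. T-HESC had 4, 4 and 13 counts, or 0.300, 0.336 and 1.30 CPM. HEC-1A was 4.64-fold higher (log2 fold change of T-HESC over HEC-1A -2.21, SE 0.47, adjusted p = 0.0023). As NR3C2 passed the filter through its HEC-1A counts, this adjusted p adds no support. Without T-HESC DMSO replicate 3, the library with 13 counts, the log2 fold change was -3.09.

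ESR1 (ENSG00000091831, chr6:151656691-152129619, plus strand) was too low to be tested in any comparison. It had 0 to 5 counts in the HEC-1A libraries and 0 to 7 in the T-HESC libraries. With means of 0.03 to 0.33 CPM and SDs of the same order in the 4 groups, a difference in ESR1 was not detectable at this depth, and no fold is given.

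FKBP4 (ENSG00000004478, chr12:2794970-2805423, plus strand) had 3917, 3728 and 3354 counts in HEC-1A and 991, 864 and 1072 in T-HESC with DMSO, or 323.9, 299.9 and 304.2 CPM against 74.4, 72.6 and 107.1 CPM. It was 3.67-fold higher in HEC-1A (log2 fold change of T-HESC over HEC-1A -1.87, SE 0.15, adjusted p = 6.06e-06). The 5 pseudogenes named after FKBP4 had 0 to 4 counts in every library, so that few reads were assigned to them.

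FKBP5 (ENSG00000096060, chr6:35573585-35728583, minus strand) had 0, 6 and 1 counts in HEC-1A with DMSO and 85, 109 and 132 in T-HESC, or 6.38, 9.17 and 13.2 CPM in the latter. The fitted fold was 45.8 (log2 fold change 5.52, SE 0.60, adjusted p = 3.53e-05), and it rests on the 6 counts of HEC-1A DMSO replicate 2, without which the log2 fold change was 7.45. Because FKBP5 passed the filter through T-HESC alone, its adjusted p adds no support. The gene has 2 promoter windows in the RefSeq table, at the annotated 5′ end (chr6:35728534-35728833, minus strand) and at an internal start (chr6:35688866-35689165, minus strand), both shown with the same capitals.
FKBP5 at the annotated 5′ end: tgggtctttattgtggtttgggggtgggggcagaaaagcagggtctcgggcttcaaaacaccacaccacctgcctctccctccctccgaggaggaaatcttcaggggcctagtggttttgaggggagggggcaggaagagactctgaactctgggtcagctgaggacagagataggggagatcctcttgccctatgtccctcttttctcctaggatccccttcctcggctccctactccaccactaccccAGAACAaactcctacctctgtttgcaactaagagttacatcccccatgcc
FKBP5 at the internal start: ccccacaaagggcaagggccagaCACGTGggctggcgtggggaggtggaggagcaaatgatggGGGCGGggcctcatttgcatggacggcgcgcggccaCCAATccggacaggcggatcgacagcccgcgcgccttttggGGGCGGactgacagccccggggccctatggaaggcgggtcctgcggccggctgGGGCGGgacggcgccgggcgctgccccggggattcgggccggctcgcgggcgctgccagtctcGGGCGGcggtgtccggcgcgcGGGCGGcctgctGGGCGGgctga
The window at the annotated 5′ end had 55.7% GC with 3 CpG sites and 1 response element arm, and the internal one had 76.0% GC with 38 CpG sites, 6 GC boxes, 1 CCAAT box and 1 E-box. In T-HESC with DMSO, the level of FKBP4 per kb was 16.3 to 24.0 times that of FKBP5.

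Among PAQR5, PAQR7 and PAQR8, each line had another leading gene. PAQR6, taken up below with the related genes, also encodes a membrane progesterone receptor and is not part of this comparison. Its level was 15.5 ± 0.459 CPM in HEC-1A with DMSO (SD, n = 3), and its level per kb was not computed. PAQR5 (ENSG00000137819, chr15:69298912-69407780, plus strand), the gamma receptor, had 42.8, 47.0 and 48.2 CPM in HEC-1A and 2.25, 3.36 and 4.50 CPM in T-HESC with DMSO, 13.9-fold more in HEC-1A (log2 fold change of T-HESC over HEC-1A -3.80, SE 0.21, adjusted p = 4.18e-07). KIF23-AS1 on the opposite strand shares 12.7% of its exon length and was counted more in T-HESC (54 to 73 counts with DMSO) than in HEC-1A (10 to 15), opposite to PAQR5. PAQR8 (ENSG00000170915, chr6:52361421-52407777, plus strand), the beta receptor, had 24.5, 26.0 and 23.3 CPM in HEC-1A and 3.98, 4.46 and 4.60 CPM in T-HESC, 5.69-fold more in HEC-1A (log2 fold change -2.51, SE 0.14, adjusted p = 4.43e-07). PAQR7 (ENSG00000182749, chr1:25861484-25875708, minus strand), the alpha receptor, had 12.1, 13.4 and 13.2 CPM in HEC-1A and 41.2, 36.7 and 36.9 CPM in T-HESC, 2.96-fold more in T-HESC (log2 fold change 1.57, SE 0.12, adjusted p = 3.09e-06).

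The summed level of the 3 PAQR genes was 16.2 ± 0.697 CPM per kb in HEC-1A and 13.2 ± 0.576 in T-HESC with DMSO (SD, n = 3). Its makeup differed more than its size. In HEC-1A with DMSO, PAQR5 made up 45.4% ± 1.45 of the sum, PAQR8 30.2% ± 1.71 and PAQR7 24.5% ± 0.308 (SD, n = 3). In T-HESC with DMSO, PAQR7 made up 89.3% ± 2.16, PAQR8 6.57% ± 0.737 and PAQR5 4.12% ± 1.47. These shares compare genes within a library and are not affected by the scaling between libraries.

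**Figure D2:**
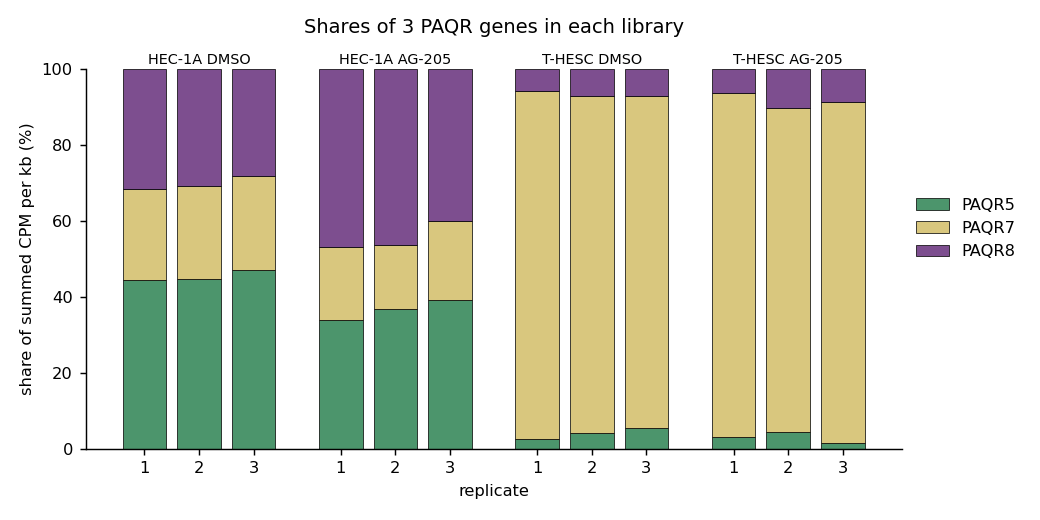
Share of PAQR5, PAQR7 and PAQR8 in the sum of their levels per kb of exon (percent, y axis), with 1 stacked bar per library and the replicates of the 4 groups on the x axis. PAQR7 filled 85.3% to 91.7% of each T-HESC bar, and the PAQR8 part of the HEC-1A bars went from 28.3% to 31.5% with DMSO to 40.1% to 46.8% with AG-205.

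The effect of AG-205 was then tested in each line. In HEC-1A, PAQR8 mRNA rose 1.72-fold and FKBP4 mRNA fell to 0.712 of its level with DMSO, while NR3C1, NR3C2, PAQR5 and PAQR7 did not pass the test. PGR, ESR1 and FKBP5 were removed by the filter on low counts in HEC-1A. None of the 6 genes tested was called with the fold limit by edgeR or by DESeq2, where edgeR called 2.77% of 14122 genes, and 3 of the 6 had an unadjusted p under 0.05, as did 3687 of the 14122. At an adjusted p under 0.05 without a fold limit 2 of the 6 passed, against 11.7% of all genes tested. AG-205 and DMSO libraries did not overlap for 5 of the 6, as for 32.4% of all genes tested, and the median log2 fold change of the 6 was -0.27, where that of all genes was 0.01.

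PAQR8 had 24.5, 26.0 and 23.3 CPM with DMSO and 45.0, 44.3 and 33.5 CPM with AG-205 in HEC-1A. The groups did not overlap, and the lowest AG-205 library, replicate 3, was the library with the smallest total count. The log2 fold change was 0.78 (SE 0.12, 95% interval 0.51 to 1.04, adjusted p = 0.0014). PAQR8 passed in 12 of 13 alternative settings. It did not pass in the fit of all 12 libraries (adjusted p = 0.17), in which the lines share 1 estimate of the spread.

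FKBP4 went from 323.9, 299.9 and 304.2 CPM with DMSO to 222.6, 189.2 and 232.5 CPM with AG-205 in HEC-1A, with no overlap. Its log2 fold change was -0.49 (SE 0.10, 95% interval -0.71 to -0.27, adjusted p = 0.0088). It passed in 10 of 13 alternative settings. The adjusted p was 0.057 without DMSO replicate 1, 0.054 without DMSO replicate 3 and 0.50 in the fit of all 12 libraries.

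The other 4 genes tested in HEC-1A had lower means with AG-205. NR3C1 had 5.70, 4.59 and 4.35 CPM with AG-205, each below the lowest DMSO library at 6.26 CPM, and its log2 fold change was -0.38 (SE 0.17, 95% interval -0.74 to -0.01, adjusted p = 0.17). NR3C2 had 1.81, 2.55 and 1.88 CPM, just below the lowest DMSO library at 2.56 CPM, and its log2 fold change was -0.40 (SE 0.24, 95% interval -0.92 to 0.11, adjusted p = 0.31). PAQR5 (40.7, 43.7 and 40.7 CPM with AG-205) overlapped with DMSO and had a log2 fold change of -0.11 (SE 0.09, 95% interval -0.31 to 0.10, adjusted p = 0.52). For PAQR7 the AG-205 libraries had 11.9, 10.4 and 11.2 CPM, and the log2 fold change was -0.17 (SE 0.13, 95% interval -0.44 to 0.11, adjusted p = 0.44).

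Within HEC-1A libraries, the level of PAQR8 per kb relative to PAQR5 was 0.710, 0.688 and 0.601 with DMSO and 1.37, 1.26 and 1.02 with AG-205. Per kb of exon, PAQR5 thus exceeded PAQR8 in each DMSO library, and PAQR8 exceeded PAQR5 in each AG-205 library. This order depends on the exon lengths used. In CPM with AG-205, PAQR8 was higher than PAQR5 in replicates 1 (45.0 against 40.7) and 2 (44.3 against 43.7). It was lower in replicate 3 (33.5 against 40.7). For such a ratio the smallest p that an exact permutation test can give is 0.1 with these group sizes. The summed level of the 3 PAQR genes was 18.2 ± 1.40 CPM per kb with AG-205 and 16.2 ± 0.697 with DMSO, and their ranges (16.6 to 19.1 and 15.4 to 16.8) overlapped.

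**Figure D3:**
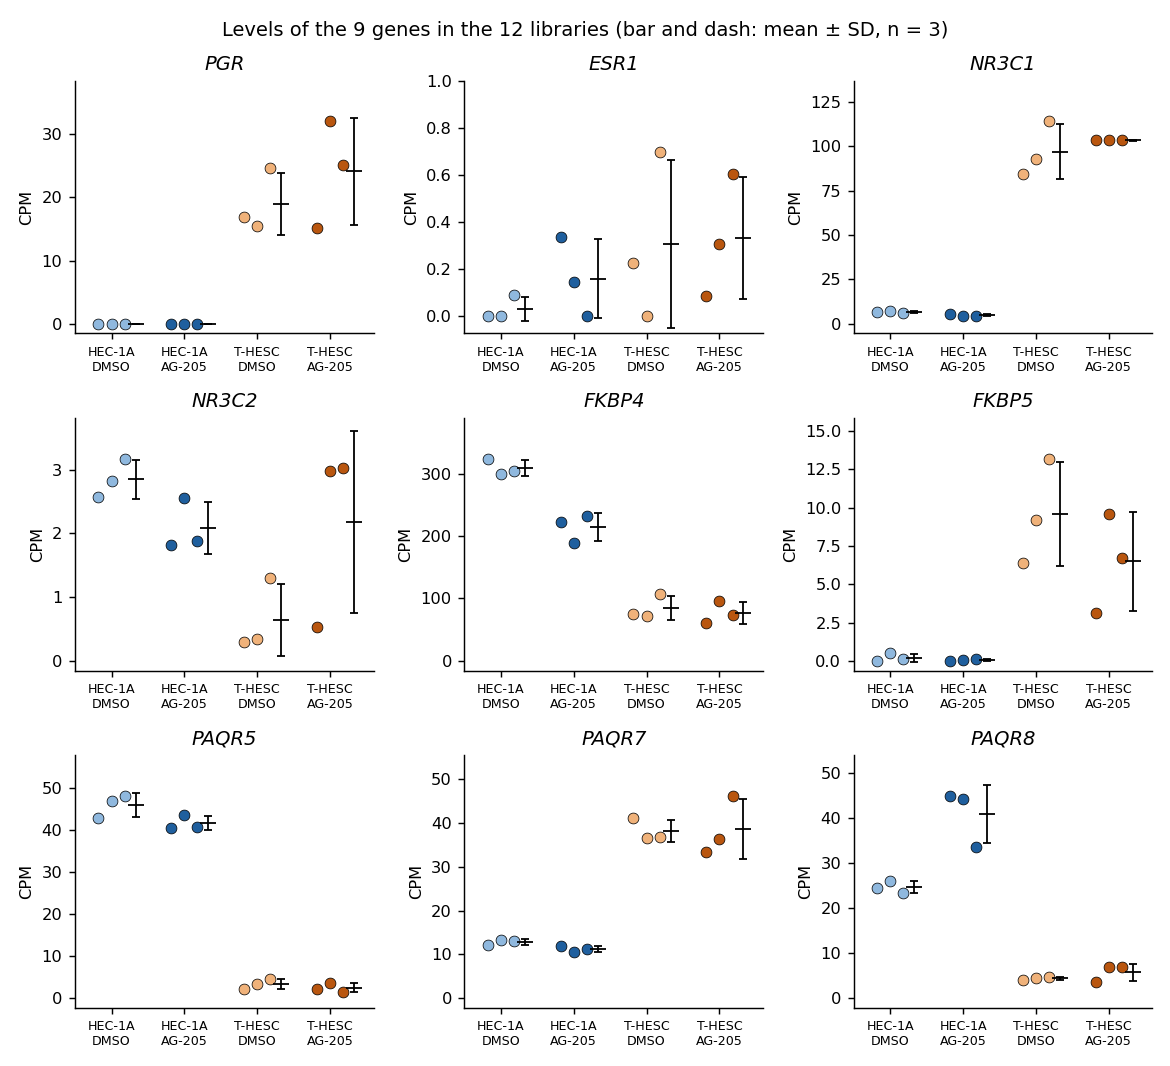
Levels in CPM (y axis, linear, with its own range in each panel) of each of the 9 genes in the 12 libraries by group (x axis), with points for replicates 1 to 3 from left to right and the dash and bar for the mean ± SD. In HEC-1A the AG-205 libraries lie above the DMSO libraries for PAQR8 and below them for FKBP4, whereas in T-HESC AG-205 and DMSO overlap in every panel.

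In T-HESC, 8 of the 9 genes were tested and none passed at an adjusted p under 0.05 in edgeR, where 0.0654% of 13753 genes were called, and none had an unadjusted p under 0.05, against 723 of all genes tested. DESeq2 called none of them either. The groups overlapped for all 8, whereas they did not overlap for 10.9% of all genes tested. The median log2 fold change of the 8 genes was 0.05, where that of all genes was 0.02. The wide spread between T-HESC libraries limits the precision of these values, and the T-HESC intervals of PAQR8 and FKBP4 include the values these genes had in HEC-1A.

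PGR had 16.9, 15.5 and 24.6 CPM with DMSO and 15.2, 32.0 and 25.1 CPM with AG-205 in T-HESC. The lowest and the highest of the 6 libraries were both AG-205 libraries, and the log2 fold change was 0.33 (SE 0.31, 95% interval -0.40 to 1.06). NR3C1 had 103.3, 103.5 and 103.2 CPM with AG-205, all within the DMSO range of 84.1 to 113.9 CPM, with a log2 fold change of 0.09 (SE 0.21, 95% interval -0.40 to 0.57). FKBP5 had 6.38, 9.17 and 13.2 CPM with DMSO and 3.16, 9.57 and 6.73 CPM with AG-205, with a log2 fold change of -0.58 (SE 0.43, 95% interval -1.57 to 0.42). For FKBP4 the value was -0.15 (SE 0.25, 95% interval -0.73 to 0.44), and its sign turned without DMSO replicate 3 (0.05).

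NR3C2 showed the largest difference of the 8 in T-HESC, on few reads. It had 4, 4 and 13 counts with DMSO and 6, 39 and 35 with AG-205, or 0.300, 0.336 and 1.30 CPM against 0.526, 2.99 and 3.02 CPM. AG-205 replicates 2 and 3 were above every DMSO library, while replicate 1, the library that stands apart from the others, was within the DMSO range. The log2 fold change was 1.76 (SE 0.79, 95% interval -0.06 to 3.58, adjusted p = 0.97). Without AG-205 replicate 1 it was 2.22 (adjusted p = 0.21), and without DMSO replicate 3 it was 2.71 (adjusted p = 0.97).

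The membrane receptor genes had overlapping levels in T-HESC. PAQR8 had 3.98, 4.46 and 4.60 CPM with DMSO and 3.59, 6.81 and 6.91 CPM with AG-205, with a log2 fold change of 0.39 (SE 0.32, 95% interval -0.35 to 1.14). Here too AG-205 replicate 1 had the lowest level, and replicates 2 and 3 were above each DMSO library. PAQR7 had 33.3, 36.4 and 46.3 CPM with AG-205 against 36.7 to 41.2 CPM with DMSO (log2 fold change 0.01, SE 0.21, 95% interval -0.48 to 0.50). PAQR5 had 2.19, 3.67 and 1.55 CPM with AG-205 (log2 fold change -0.44, SE 0.44), at levels where KIF23-AS1 on the other strand had 14 to 36 counts.

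Whether AG-205 acted differently in the lines was tested in a fit of all 12 libraries, as the log2 fold change in T-HESC less that in HEC-1A. It could be estimated for 6 of the 9 genes, since PGR was at the floor in both HEC-1A groups and FKBP5 in HEC-1A with AG-205, and ESR1 was not tested. None of the 6 passed in edgeR or was called by DESeq2, where edgeR called 0.174% of 16132 genes, and 1 of the 6, NR3C2, had an unadjusted p under 0.05, as did 1015 of the 16132. The difference was -0.36 for PAQR8 (SE 0.31, 95% interval -1.04 to 0.33, adjusted p = 0.96) and 0.36 for FKBP4 (SE 0.28, 95% interval -0.25 to 0.96, adjusted p = 0.95), so that the responses of these genes in HEC-1A were not shown to differ from those in T-HESC. For NR3C2 it was 2.21 (SE 0.82, 95% interval 0.42 to 4.00, adjusted p = 0.64), and over the alternative settings its adjusted p ranged from 0.067, without T-HESC AG-205 replicate 1, to 1.00. The difference was 3.16 without T-HESC DMSO replicate 3.

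**Figure D4:**
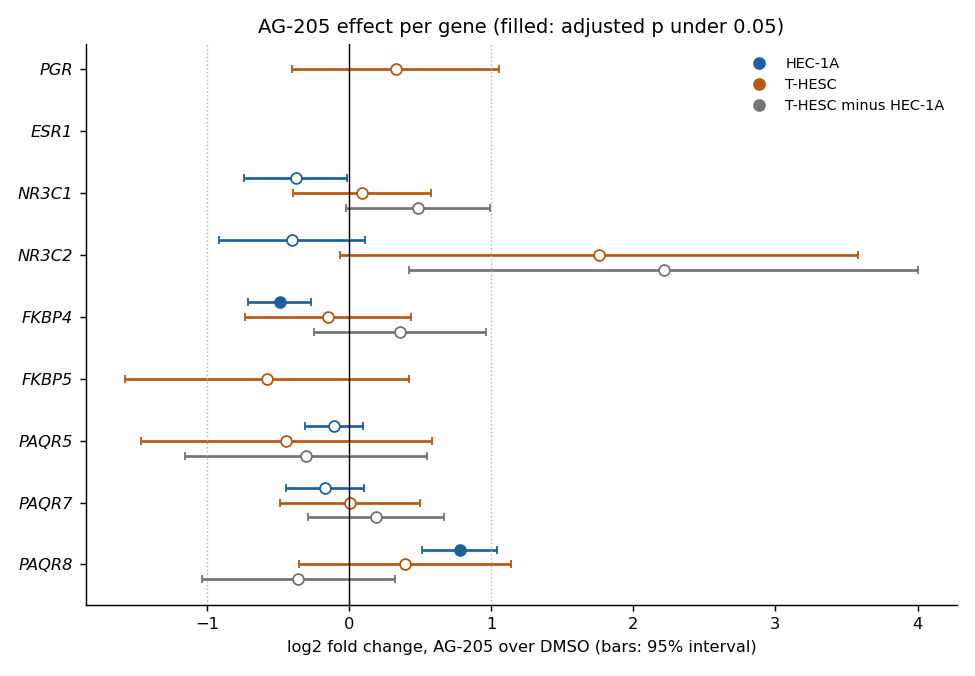
Log2 fold change of AG-205 over DMSO (x axis) for each of the 9 genes in HEC-1A (blue) and T-HESC (orange), and the difference between the lines (gray), with bars for the 95% interval and filled points at an adjusted p under 0.05. The filled points are PAQR8 at 0.78 and FKBP4 at -0.49 in HEC-1A, and genes without a point were not tested or had a group at the floor.

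Related genes were examined in 6 lists, whose counts without a fold limit in HEC-1A are to be read against the 11.7% of all genes that passed there (1040 higher and 608 lower of 14122). Among 10 other steroid hormone receptor and estrogen-related receptor genes, 2 were tested in HEC-1A, where NR2F2 (COUP-TFII, an orphan receptor of the endometrial stroma) fell (log2 fold change -0.34, SE 0.10, adjusted p = 0.047) and ESRRA, an estrogen-related receptor, had -0.31 (SE 0.09, adjusted p = 0.054). In T-HESC, 5 were tested and 0 passed, with NR2F1 (-0.63, SE 0.33) and GPER1, a membrane estrogen receptor (-0.44, SE 0.44), having the smallest p.

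Among 8 other PAQR family genes, 6 were tested in each line, 1 rose and 0 fell in HEC-1A (11.7% of all genes passed), and 0 passed in T-HESC. The gene that rose was PAQR6, which encodes the delta membrane progesterone receptor. Its level was 15.1 to 16.0 CPM with DMSO and 19.9 to 31.3 CPM with AG-205 in HEC-1A (log2 fold change 0.82, SE 0.15, adjusted p = 0.0041), a change of the size of that of PAQR8. In T-HESC, PAQR6 had 3.00 ± 0.799 CPM with DMSO and 2.13 ± 0.942 with AG-205 (SD, n = 3), and its AG-205 effect in T-HESC less that in HEC-1A was -1.30 on the log2 scale (SE 0.41, adjusted p = 0.51). ADIPOR2, an adiponectin receptor of the same family, had a HEC-1A value of 0.23 (SE 0.08, adjusted p = 0.10). PAQR3 (0.42, SE 0.27) and PAQR4 (-0.84, SE 0.58) had the smallest p in T-HESC.

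Of 20 genes of the receptor chaperone cycle, all were tested in both lines. In HEC-1A 2 of the 20 rose and 0 fell, a share close to the 11.7% of all genes. HSPA1B, an inducible HSP70, rose by 0.82 on the log2 scale (SE 0.12, adjusted p = 8.96e-04), and DNAJB1, an HSP40 co-chaperone, by 0.35 (SE 0.10, adjusted p = 0.043). The median of the 20 in HEC-1A was -0.11. HSPA1A, a near-identical copy of HSPA1B that can share its reads, was at 0.98 on this scale (SE 0.61, adjusted p = 0.34), and is given after its values were seen. In T-HESC 0 of the 20 passed, with the smallest p for TTC9 (-1.18, SE 0.59) and BAG1 (0.48, SE 0.31).

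Among the 15 of 16 receptor coregulator genes tested in HEC-1A, 1 rose and 2 fell, where 11.7% of all genes passed. NRIP1, a corepressor of nuclear receptors, fell (log2 fold change -0.61, SE 0.14, adjusted p = 0.017), as did SMARCA4, the ATPase of a chromatin remodeling complex (-0.38, SE 0.11, adjusted p = 0.040), and NCOA4, a coactivator that also directs ferritin to autophagy, rose (0.32, SE 0.09, adjusted p = 0.040). In T-HESC 14 were tested and 0 passed, and CREBBP, a histone acetyltransferase, had a log2 fold change of -0.41 (SE 0.34).

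Among 9 of 14 glucocorticoid receptor target genes tested in HEC-1A, 3 rose and 0 fell, where 1040 of all 14122 genes rose and 608 fell. TSC22D3 (GILZ), a mediator of the anti-inflammatory action of glucocorticoids, went from 52.1 ± 1.71 to 98.4 ± 7.54 CPM (SD, n = 3; log2 fold change 0.96, SE 0.09, adjusted p = 2.73e-05). The metallothionein gene MT2A went from 82.4 ± 4.90 to 130.6 ± 11.3 CPM (log2 fold change 0.70, SE 0.10, adjusted p = 6.76e-04). SCNN1A, a subunit of the epithelial sodium channel, was low and went from 1.95 ± 0.161 to 3.30 ± 0.749 CPM (log2 fold change 0.82, SE 0.24, adjusted p = 0.043). In T-HESC 11 were tested and 0 passed: CRISPLD2 was at -1.45 (SE 0.41, adjusted p = 0.50) and TSC22D3 at 0.78 (SE 0.26, adjusted p = 0.67). The groups did not overlap for either, as for 10.9% of all genes tested in T-HESC, with 4.10 to 6.46 CPM of CRISPLD2 with DMSO and 1.23 to 2.85 with AG-205, and 18.2 to 27.7 CPM of TSC22D3 with DMSO and 35.1 to 45.9 with AG-205.

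For 18 estrogen and progesterone receptor target genes, 8 were tested in HEC-1A, of which 2 rose and 0 fell, where 11.7% of all genes passed. CA12, a carbonic anhydrase, rose by 0.54 on the log2 scale (SE 0.09, adjusted p = 0.0021), and BCL6, a transcriptional repressor, by 0.53 (SE 0.15, adjusted p = 0.042). In T-HESC, the line with PGR, 10 were tested and 0 passed, with HOXA10 (-0.75, SE 0.35) and CXCL12 (-0.51, SE 0.26) at the smallest p. None of the genes of the 6 lists was called with the fold limit in either line by edgeR. For the difference between the lines, 1 coregulator gene was called, PPARGC1B (4.83, SE 0.81, adjusted p = 0.042, edgeR). PPARGC1B was too low to be tested in T-HESC alone, at 0.0333 CPM with DMSO and 0.852 CPM with AG-205. It was at the floor in T-HESC with DMSO (at most 0.0999 CPM), so the size of this difference is not reliable. With a replicate block, or without HEC-1A DMSO replicate 3, no gene was called for the difference between the lines. Summed epithelial marker levels moved with AG-205 in HEC-1A, from 1905 to 2110 CPM with DMSO to 2635 to 2729 CPM, while the summed stromal markers had 16.1 to 21.0 and 16.9 to 21.2 CPM and endothelial and leukocyte markers were at the floor, and the part of the epithelial markers in these results was not tested.

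**Figure D5:**
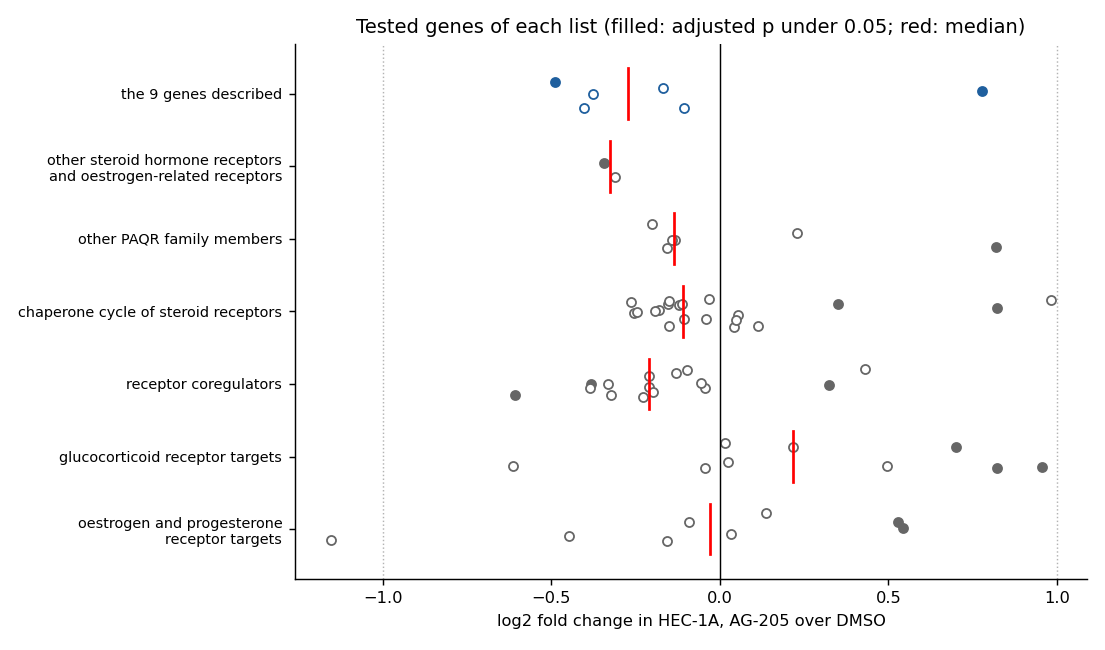
Log2 fold change of AG-205 over DMSO in HEC-1A (x axis) for the tested genes among the 9 described and in each of the 6 lists (y axis), with 1 point per gene, filled at an adjusted p under 0.05, spread vertically for legibility, and a red line at the median. The medians lie between -0.33 and 0.22, and filled points are 1 to 3 per list.

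The genes whose pattern over the 12 libraries was most like that of each member were ranked by Pearson's r of log2 CPM, centered within each line, over the genes with a mean of at least 5 CPM. The libraries share treatment, depth and line, and r is a description. PAQR8 was most like KCNC4, SNX9 and B4GALT5 (r = 0.97 for each). The 3 genes most like FKBP4 were FAH (0.96), MTREX (0.96) and SUPT16H (0.94). For NR3C2 they were NIBAN1 (0.98), APBB2 (0.96) and POGK (0.96), for NR3C1 HJURP (0.90), EOGT (0.90) and TMED1 (0.89), for PAQR7 FBXO10 (0.95) and PRSS12 (0.92), and for PAQR5 RANBP6 (0.97), ZMYM1 (0.95) and ENSG00000279207 (0.95).

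PGRMC1, the protein that AG-205 has been used to target, had 137.7 ± 0.542 CPM in HEC-1A and 168.0 ± 13.6 CPM in T-HESC with DMSO (SD, n = 3). Per kb of exon its level with DMSO was 71.8 CPM per kb in HEC-1A and 87.6 in T-HESC, above each of the 9 genes in either line. INSIG1, a regulator of sterol synthesis that served as a reference for the AG-205 response, went from 34.6 ± 1.64 to 315.2 ± 43.2 CPM in HEC-1A and from 118.7 ± 31.8 to 1046 ± 152.3 CPM in T-HESC. None of the folds estimated for the 9 genes with AG-205 was as large.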

How the data were processed

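RNA from 12 cultures (HEC-1A and T-HESC with AG-205 or DMSO, 3 libraries per group) had been sequenced in pairs of reads after polyA selection. The authors deposited raw counts per gene, which they obtained with Trimmomatic 0.38, HISAT2 2.1.0 on GRCh38 and featureCounts of Subread 2.0.0, per the labels. Strandedness and the handling of reads with several matches are not given in the sources used here, so genes that overlap on opposite strands carry that uncertainty. The 58735 identifiers were matched to symbols (58207 matched), and exon lengths came from GENCODE 44.

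Each line was analyzed with edgeR 4.0.16 in R 4.3.3 (TMM, filterByExpr, robust quasi-likelihood fit), for AG-205 against DMSO, and T-HESC against HEC-1A was tested in the DMSO libraries. The difference of the AG-205 effects was tested in a fit of all 12 libraries. Benjamini-Hochberg adjustment covered all genes tested. The study's own tool, DESeq2 (here 1.42.0), was an alternative, as were RLE and upper-quartile scaling, other filters, thresholds of an adjusted p under 0.01 or no fold limit, a replicate block, a joint fit and leaving out single libraries. The fits were tested on simulated data. For the 9 genes, no fitted fold was used where a group was at the floor. Total counts set the precision, and intervals cover counting error and the spread between libraries only. The floor is a set limit of 3 counts and no error bound. Figures were drawn with matplotlib 3.10.9. No pair of libraries was a copy of another (chi-square per degree of freedom 1.88 to 233).

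The genes, the lists and the tests were chosen with earlier results of these data known, and none of them is independent evidence. Of each list, the genes called in a line were to be named, or else the 2 with the smallest p, and genes named beyond that were chosen after their values were seen. The genes most like each member, up to 3, were named as well. Results for some genes that these rules select are not reported here.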

Additional observations from a re-analysis of the deposited data

How the results depend on the processing

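No member tested in the main edgeR fit of a comparison was called with the fold limit for AG-205 under any alternative run. This held in either line and for the difference between the lines. Without the fold limit, 2 members passed in HEC-1A. Members left untested in a main fit were not counted in the alternative runs. The 8 members called between the lines were called under every alternative. Counts over all genes moved more. In HEC-1A the genes called were 137 in a fit of all 12 libraries and 1648 without the fold limit. In T-HESC they were 116 with DESeq2, 114 without a filter, 160 in the fit of all 12 libraries and 0 at an adjusted p under 0.01 in edgeR (723 genes at an unadjusted p under 0.05), and leaving out single libraries gave 0 to 99. The 99 came without T-HESC AG-205 replicate 1, and without replicate 3 of that group there were 4. The count was 0 in edgeR without its replicate 2 (659 genes at an unadjusted p under 0.05) and without any DMSO replicate of T-HESC (397, 414 and 659). The difference between the lines gave 86 genes with DESeq2, 141 without a filter, 4 at an adjusted p under 0.01, and 0 (without HEC-1A DMSO replicate 3) to 84 (without T-HESC AG-205 replicate 1). Between the lines, 10670 genes passed without the fold limit. The labels do not say whether AG-205 and DMSO libraries of a line share a culture experiment, and the libraries were treated as unpaired. The study's methods describe independent culture experiments and paired the RT-qPCR values within an experiment. They do not say which sequencing libraries belong to the same experiment. Deviations of same-numbered libraries correlated from -0.53 to 0.23, and those of differently numbered T-HESC libraries from -0.54 to 0.69, which does not settle a pairing. A replicate block gave 17 genes in T-HESC, 0 for the difference (767 at an unadjusted p under 0.05) and no change in the calls of members. Among members, signs turned for 3 AG-205 effects in T-HESC: PAQR7 was -0.041 with upper-quartile scaling, -0.0083 without a filter, -0.0006 with the block and -0.123 to 0.065 when single libraries were left out, NR3C1 was -0.0040 to 0.212 and FKBP4 -0.348 to 0.048. Upper-quartile scaling moved the median of all genes between the lines to -0.17. CPM from raw totals were 0.85 to 0.88 times the TMM levels in T-HESC and 1.12 to 1.18 times in HEC-1A. The cause of these changes was not tested. Depth limits ESR1 in all groups, PGR and FKBP5 in HEC-1A and NR3C2 in T-HESC.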
